A study of Mus musculus with 6 samples.

Results

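The genes described here are 43 core regulators of the cell division cycle: the cyclins, the cyclin-dependent kinases (Cdks), the proteins that inhibit or activate those kinases, and the E2F and pocket proteins that they act on. They were chosen by name, with earlier results of these data known. Each name matched 1 of the 53647 rows of the deposited gene table. The RNA came from macrophages of pancreatic ductal adenocarcinoma grown orthotopically, in the pancreas itself, in C57BL/6 mice. The macrophages were sorted by their level of Cxcr4, the receptor for the chemokine Cxcl12, into populations labelled Cxcr4+ and Cxcr4-, and 3 libraries of each were sequenced. The entry "Cxcr4+" or "Cxcr4-" under genotype names the sorted population: both come from the same tumour model, and no drug or gene deletion is given for either. The labels name neither the tumour line, the age of the mice nor the gate, and whether the 3 libraries of a population represent different mice is not given. The p-values therefore measure the spread between these libraries, which may be technical.

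A cell that divides passes through G1, S, G2 and mitosis. D-type cyclins with Cdk4 or Cdk6, and then E-type cyclins with Cdk2, phosphorylate the pocket proteins and so free the activating E2F factors, which switch on genes needed for DNA synthesis. Cyclin A acts in S and G2, and cyclin B with Cdk1 drives mitosis, helped by the transcription factors Mybl2 and Foxm1. INK4 proteins (Cdkn2a to Cdkn2d) block Cdk4 and Cdk6, and Cip/Kip proteins (Cdkn1a to Cdkn1c) act on a wider range of Cdk complexes. Many tissue macrophages maintain their number by dividing in place. Levels below are in FPKM (fragments scaled by gene length and library depth), which allows genes of different length to be compared. Differences are log2 fold changes of Cxcr4+ against Cxcr4- libraries from edgeR's quasi-likelihood fit to the estimated counts, with p-values adjusted by Benjamini-Hochberg over all 16031 genes tested and a threshold of 0.05. In bulk RNA a larger number of dividing cells and more RNA per dividing cell cannot be told apart.

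The libraries held 46444934 to 55740671 estimated counts, and each Cxcr4+ library was deeper than every Cxcr4- library. Cxcr4 RNA had 9.18, 9.04 and 9.59 FPKM in Cxcr4+ libraries 1 to 3 and 8.56, 5.97 and 7.73 in Cxcr4- libraries 1 to 3, which did not overlap, but the sorting marker itself missed the threshold (log2 fold change 0.27, adjusted p = 0.999 with edgeR). All 8 macrophage markers were detected, with a summed level of 7370 to 9200 FPKM for Cxcr4+ cells and 6570 to 7840 for Cxcr4- cells. The 8 T and NK cell markers summed to at most 0.102 FPKM. Those of B cells, 6 in number, summed to 30.7 to 36.1 FPKM in Cxcr4+ and 34.7 to 35.4 in Cxcr4- libraries. Nearly all of that was Ighm, at 30.5 to 35.5 FPKM. Endothelial markers, also 6, summed to 0.22 to 0.414 and 0.103 to 0.231 FPKM. Libraries numbered 2 in both populations stood apart: for 26.2% of tested genes both lay above the other 4 libraries, and for 9.74% both lay below. Cxcr4+ library 1 had the highest summed fibroblast markers, with 16.1 FPKM over 10 genes, led by Col1a1 (5.83) and Sparc (5.20). All but Dcn, Fap and Lum were highest in that library. Cxcr4+ libraries 2 and 3 had 3.14 and 3.93 FPKM, and the Cxcr4- range was 2.20 to 3.14. Epithelial markers, 10 in number, summed to 1.83 to 3.38 FPKM for Cxcr4+ cells, below the 3.60 to 6.34 for Cxcr4- cells. Above the floor of 12 counts in some library were 8 of the 10 fibroblast markers, with Lum at 0, and 9 of the 10 epithelial markers, with Tff1 at 0. Of 8 neutrophil markers 3 passed that floor, with Camp and Ngp at 0, and the sums were 1.33 to 1.63 and 1.53 to 2.11 FPKM. Their part in the differences described below was not tested.

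Of the 43 regulators, 40 had enough counts to be tested and 3 did not: Cdkn1c, Cdkn2a and Cdkn2b. No tested member passed the threshold in edgeR's quasi-likelihood test, with 0 of 40 higher and 0 of 40 lower in Cxcr4+ macrophages. Among all tested genes the shares called were 0.0125% higher and 0.0187% lower. DESeq2 and limma on log2 FPKM also called 0 members. At an unadjusted p under 0.05 in edgeR, 6 members were higher and 1 was lower, where the shares among all tested genes were 2.66% and 2.18%, and DESeq2 gave 8 such members and limma 6. There were 5 to 9 with 1 library left out, and the matching shares of all tested genes are not given for these alternatives. The 6 were Ccne2, Ccna2, Ccnb1, E2f7, E2f8 and Cdkn2d, and the 1 was Foxm1. The populations did not overlap, with Cxcr4+ the higher, for 7 members (5.5% of all tested genes) and, with Cxcr4+ the lower, for 0 (4.87% of all tested genes). These 7 were Ccne2, Cdk4, E2f1, Ccna2, Cdc25c, E2f7 and E2f8.

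Small positive differences were common among the tested members. A value above 0 was found for 33 of 40, against 50.1% of all tested genes. With 1 library left out the count ran from 28, without Cxcr4- library 2, to 35, without Cxcr4- library 3. The matching shares of all tested genes are not given. The median of the 40 was 0.11, against 0.0004 over all tested genes. The median was larger for the class that acts in S, G2 and mitosis than for the class that acts in G1. That difference between lists was not tested, and the lists were chosen with earlier results of these data known. For 14 S/G2/M regulators the median log2 fold change was 0.28, with 13 positive, and for 12 G1 regulators it was 0.07, with 9 positive. The 14 tested inhibitors and other members had a median of 0.09, with 11 positive. The assignment to classes affects the size: without Wee1, Chek1 and Cdc25b the S/G2/M median was 0.42. These had log2 fold changes of 0.08, 0.21 and 0.17, all below the class median. Without the E2F factors and Cdc25a the G1 median was 0.09. The G1 median was 0.03 without Cxcr4+ library 1 and 0.02 without Cxcr4- library 2.

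**Figure D1:**
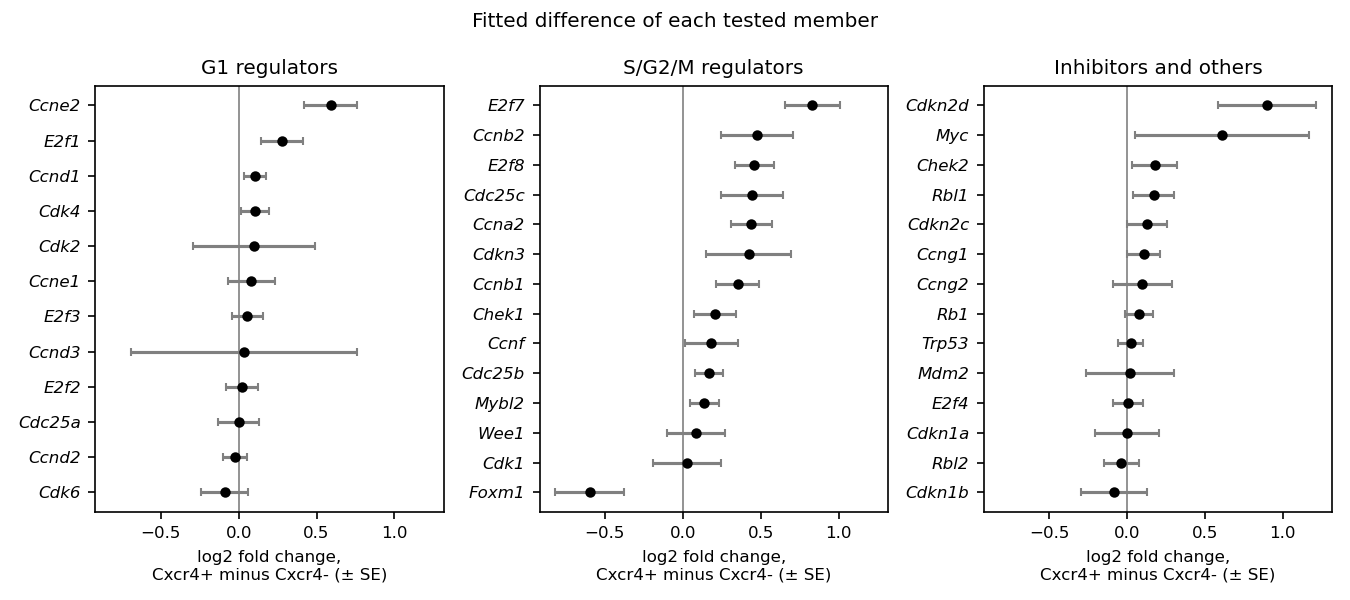
Log2 fold change of Cxcr4+ minus Cxcr4- libraries (horizontal axis, points, with SE as bars) for the 40 tested members, sorted within 3 classes. Of the S/G2/M regulators 13 of 14 lie to the right of 0 and Foxm1 alone to the left, while the G1 regulators other than Ccne2 and E2f1 lie close to 0.

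The classes were also read in each library as the median deviation of a class from each gene's own mean of 6 libraries, in log2 FPKM. S/G2/M regulators stood at -0.004, 0.26 and 0.14 in Cxcr4+ libraries 1, 2 and 3 and at -0.29, -0.09 and -0.06 in Cxcr4- libraries 1, 2 and 3. G1 regulators stood at 0.02, 0.04 and -0.01 in the Cxcr4+ and at -0.06, -0.06 and -0.06 in the Cxcr4- libraries. In both classes each Cxcr4+ library was thus above every Cxcr4- library, by little where Cxcr4+ library 1 meets Cxcr4- library 3 in the S/G2/M class. The inhibitors and other members stood at 0.05, 0.0 and 0.14 in the Cxcr4+ and at -0.07, -0.06 and 0.001 in the Cxcr4- libraries, which overlapped. The S/G2/M value minus the G1 value was -0.03, 0.22 and 0.15 in the Cxcr4+ and -0.23, -0.03 and 0.006 in the Cxcr4- libraries. That difference overlapped between the populations, with Cxcr4+ library 1 below Cxcr4- library 3. Markers of cycling cells, a list of 10 that includes Mki67 and Top2a, had summed levels of 225 to 265 FPKM across Cxcr4+ libraries. The Cxcr4- range was 182 to 214. Pcna, the most abundant of the 10, gave 104 to 119 FPKM of the Cxcr4+ and 84.0 to 96.5 of the Cxcr4- sums. Singly, 4 of the 10 did not overlap between the populations, with Cxcr4+ the higher, against 5.5% of all tested genes. The rest of the 10, Top2a among them, did overlap.

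**Figure D2:**
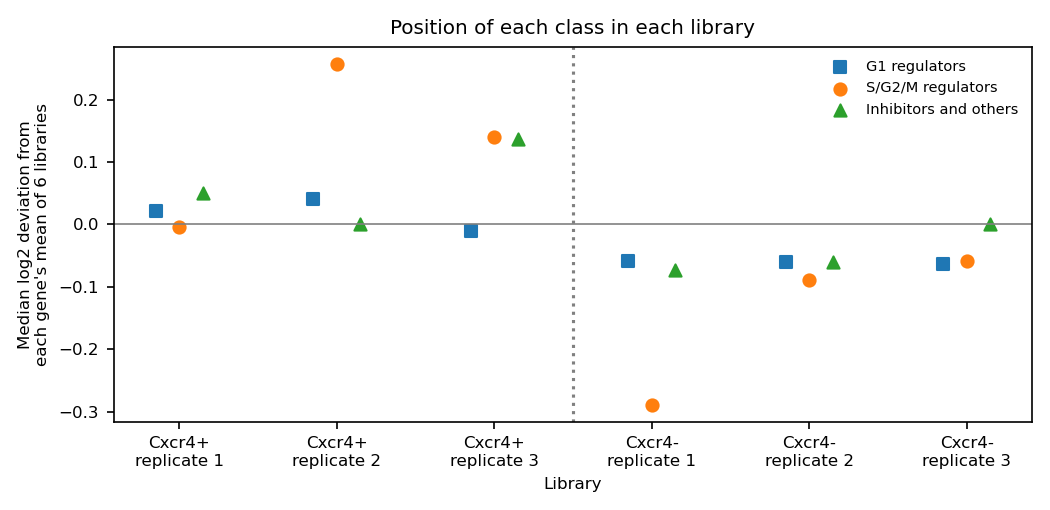
Median deviation of each class in each of the 6 libraries (vertical axis, log2 units; 0 is each gene's mean of 6 libraries), with Cxcr4+ libraries left and Cxcr4- libraries right of the dotted line. The S/G2/M regulators (circles) range from -0.29 to 0.26, and the G1 regulators (squares) from -0.06 to 0.04.

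Members of the G1 machinery were among the most abundant of the cell cycle kinases and cyclins, and their levels were close between the populations. Ccnd1, cyclin D1, which couples growth signals to Cdk4 and Cdk6, had 38.6, 42.3 and 38.6 FPKM in Cxcr4+ libraries 1 to 3 and 35.4, 39.1 and 36.0 in Cxcr4- libraries 1 to 3. The groups overlapped, and the log2 fold change was 0.11 (95% interval -0.05 to 0.27). Ccnd2, cyclin D2, had 6.15, 6.63 and 6.13 FPKM in Cxcr4+ and 6.00, 6.61 and 6.49 in Cxcr4- libraries, a log2 fold change of -0.02 (95% interval -0.20 to 0.16). Ccnd3, cyclin D3, had 9.89, 2.32 and 2.54 FPKM in Cxcr4+ and 9.06, 2.18 and 2.98 in Cxcr4- libraries. The number 1 library of each population was high and the other 4 were low, so the log2 fold change of 0.04 has a 95% interval of -1.66 to 1.73 and says little about the populations. Its sign turned when Cxcr4+ library 1 (-1.01), Cxcr4- library 2 (-0.33) or Cxcr4- library 3 (-0.21) was left out. Ccnd3 shares 359 bases with Bysl on the opposite strand, which had 6.72 to 10.8 FPKM, and the sources used here do not say whether counting used strand.

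Ccnd1 supplied most of the D-type cyclin RNA. Its share of the summed FPKM of the 3 D-type cyclins was 77.6% ± 5.72 (SD, n = 6 libraries), 78.3% ± 6.64 in Cxcr4+ and 77.0% ± 6.06 in Cxcr4- libraries. The exact two-sided permutation test of that share gave p = 0.5, and 0.1 is the smallest p that 3 against 3 libraries allow. In all, 10 such shares, 1 per family, were compared in this way, and the lowest value after Benjamini-Hochberg adjustment was 0.5.

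Cdk4, a catalytic partner of D-type cyclins, had 42.0, 41.4 and 44.8 FPKM in Cxcr4+ and 40.4, 39.0 and 39.5 in Cxcr4- libraries. The groups did not overlap, but the difference was small, with a log2 fold change of 0.11 ± 0.09 (SE) and an edgeR adjusted p of 1.0. It was 0.05 without Cxcr4+ library 3, 0.06 without Cxcr4- library 2 and 0.16 without Cxcr4+ library 2. Cdk4 shares 641 bases with Tspan31 on the opposite strand, which had 36.3 to 44.1 FPKM, so reads of the shared stretch may count for either. Cdk6, the other partner, had 15.7 ± 2.43 FPKM (SD, n = 3) in Cxcr4+ and 16.7 ± 0.986 in Cxcr4- libraries. Cdk4 made up 73.2% ± 3.03 of the summed FPKM of both kinases in Cxcr4+ and 70.4% ± 0.944 in Cxcr4- libraries (exact two-sided permutation p = 0.3).

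The E-type cyclins, which activate Cdk2 at the start of S phase, differed in level. Ccne1 was the abundant one, with 8.88, 13.0 and 9.44 FPKM in Cxcr4+ and 8.39, 11.5 and 9.52 in Cxcr4- libraries, highest in the number 2 library of each population (log2 fold change 0.08, -0.06 without Cxcr4+ library 2). Ccne2 had 1.36, 1.61 and 1.61 FPKM in Cxcr4+ and 0.909, 1.02 and 1.09 in Cxcr4- libraries. Every Cxcr4+ library lay above every Cxcr4- library, and edgeR gave a log2 fold change of 0.59 ± 0.17 (SE; unadjusted p = 0.00912, adjusted p = 0.953). With limma on log2(FPKM + 1) the difference was 0.33. Counts behind these values were 303 to 336 for Cxcr4+ cells and 182 to 202 for Cxcr4- cells. Ccne2 (chromosome 4, 11191351 to 11204779, forward strand, GRCm39) shares 5622 bases with Ints8 on the opposite strand, which varied less, from 3.04 to 3.30 FPKM. The share of Ccne2 in the E-type cyclins was 13.0% ± 1.79 in Cxcr4+ and 9.42% ± 1.11 in Cxcr4- libraries (exact two-sided permutation p = 0.1, the smallest possible; 0.5 after adjustment over the 10 shares).

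Cdk2, the partner of cyclins E and A, had 8.89, 5.08 and 5.83 FPKM in Cxcr4+ and 4.39, 4.02 and 10 in Cxcr4- libraries. Cxcr4+ library 1 and Cxcr4- library 3 were high and the other 4 low, so the high values did not follow the populations (log2 fold change 0.10, 95% interval -0.82 to 1.01). Its sign turned without Cxcr4+ library 1 (-0.20), Cxcr4- library 1 (-0.08) or Cxcr4- library 2 (-0.15). Cdc25a, a phosphatase that removes inhibitory phosphates from Cdk2, had 3.70 ± 0.505 FPKM in Cxcr4+ and 3.68 ± 0.471 in Cxcr4- libraries.

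Among the activating E2F factors, E2f1 was the most abundant and had the largest difference. It had 14.1, 11.5 and 11.4 FPKM in Cxcr4+ and 11.0, 9.90 and 9.50 in Cxcr4- libraries. The groups did not overlap, with 11.4 FPKM as the lowest Cxcr4+ and 11.0 as the highest Cxcr4- value, and edgeR gave a log2 fold change of 0.28 ± 0.14 (SE) with an adjusted p of 0.999. Without Cxcr4+ library 1 it was 0.15. E2f2 and E2f3 had 5.19 ± 0.0590 and 4.47 ± 0.0641 FPKM in Cxcr4+ against 5.09 ± 0.170 and 4.29 ± 0.302 in Cxcr4- libraries, with 95% intervals of the log2 fold change of -0.22 to 0.27 and -0.17 to 0.28.

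**Figure D3:**
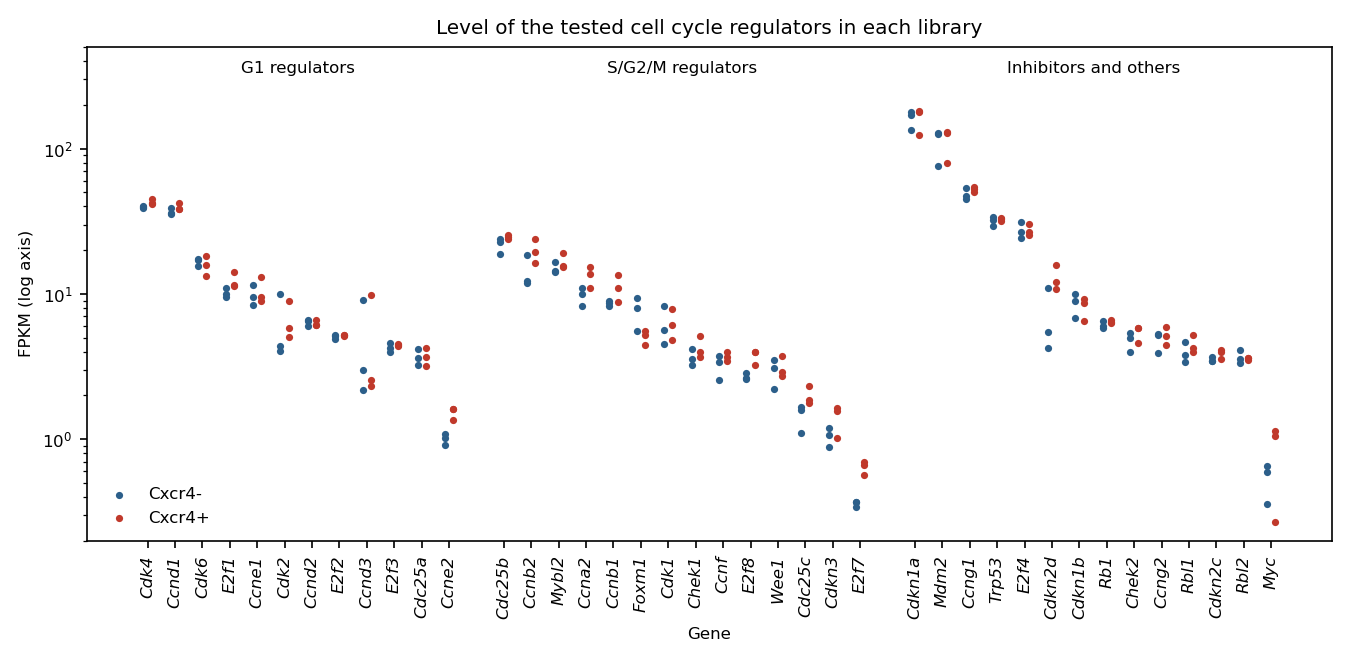
FPKM of the 40 tested members in each library (vertical log axis; blue, 3 Cxcr4- libraries; red, 3 Cxcr4+ libraries), ordered by mean level within 3 classes. Cdkn1a and Mdm2 had the highest means, 161 and 111 FPKM, and E2f7 the lowest, 0.503.

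The smallest p-values of the members were those of the atypical E2F factors, E2f7 and E2f8, which are made in S phase and repress E2F target genes without a pocket protein. E2f7 (chromosome 10, 110581300 to 110623245, forward strand, GRCm39) had 0.695, 0.568 and 0.668 FPKM in Cxcr4+ libraries 1 to 3 and 0.341, 0.370 and 0.372 in Cxcr4- libraries 1 to 3. Its log2 fold change of 0.83 (SE 0.18, 95% interval 0.41 to 1.25, unadjusted p = 0.00197) had an adjusted p of 0.703 by edgeR, 0.0989 by DESeq2, and 0.0989 to 1.0 over all alternatives. The level was low, with 301 to 397 counts for Cxcr4+ cells and 176 to 187 for Cxcr4- cells. E2f8 (chromosome 7, 48516177 to 48531344, reverse strand, GRCm39) had 3.24, 4.01 and 3.98 FPKM in Cxcr4+ and 2.61, 2.65 and 2.86 in Cxcr4- libraries. For E2f8 edgeR gave a log2 fold change of 0.46 ± 0.12 (SE) with an adjusted p of 0.953. Neither gene overlaps another gene of more than 0.0508 FPKM. Leaving out any 1 library kept the log2 fold change between 0.76 and 0.95 for E2f7 and between 0.39 and 0.54 for E2f8. With limma on log2(FPKM + 1), where the pseudocount exceeds the level of E2f7, its difference was 0.27. Summed, both had 3.94 to 4.65 FPKM in Cxcr4+ samples and 2.96 to 3.23 in Cxcr4- samples, while the activating E2f1, E2f2 and E2f3 summed to 21.1 to 23.6 and 18.7 to 20.4. Both sums were thus higher in every Cxcr4+ library than in every Cxcr4- library.

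Cyclins of S phase and mitosis also had higher means in Cxcr4+ libraries, with none past the threshold. Ccna2, cyclin A2 (chromosome 3, 36619014 to 36626299, reverse strand, GRCm39), had 11.0, 15.2 and 13.7 FPKM in Cxcr4+ and 8.29, 11.0 and 10 in Cxcr4- libraries. The lowest Cxcr4+ library, number 1, lay just above the highest Cxcr4- library, number 2, and edgeR gave a log2 fold change of 0.44 ± 0.13 (SE) with an adjusted p of 0.953. Ccna2 shares 863 bases with Exosc9 on the opposite strand, which had 3.37 to 6.84 FPKM. Ccnb1, cyclin B1 (chromosome 13, 100915158 to 100923078, reverse strand, GRCm39), had 8.72, 13.4 and 11.0 FPKM in Cxcr4+ and 8.21, 8.97 and 8.60 in Cxcr4- libraries. Cxcr4+ library 1 lay within the Cxcr4- range and the other 2 above it (log2 fold change 0.35 ± 0.14 SE, with an edgeR adjusted p of 0.998, and 0.23 without Cxcr4+ library 2). Ccnb2, cyclin B2 (chromosome 9, 70314974 to 70328829, reverse strand, GRCm39), was the more abundant B-type cyclin, with 19.3, 16.3 and 23.7 FPKM in Cxcr4+ and 12.2, 11.9 and 18.4 in Cxcr4- libraries. Here Cxcr4- library 3 reached the Cxcr4+ range (log2 fold change 0.48, SE 0.23), and without it the value was 0.72, against 0.31 without Cxcr4+ library 3. Ccnf, an F-box protein of S and G2 that bears a cyclin fold but binds no Cdk, had 3.69 ± 0.243 FPKM in Cxcr4+ and 3.21 ± 0.606 in Cxcr4- libraries.

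Cdk1, the kinase of cyclin B, had close means in the populations. It had 4.84, 7.87 and 6.06 FPKM in Cxcr4+ and 4.55, 8.20 and 5.67 in Cxcr4- libraries, highest in the number 2 library of each population, and a log2 fold change of 0.03 (95% interval -0.48 to 0.53). The sign turned without Cxcr4+ library 2 (-0.13), Cxcr4- library 1 (-0.13) or Cxcr4- library 3 (-0.02). The interval includes the values fitted for Ccna2 and for both B-type cyclins, and the difference between genes was not tested.

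**Figure D4:**
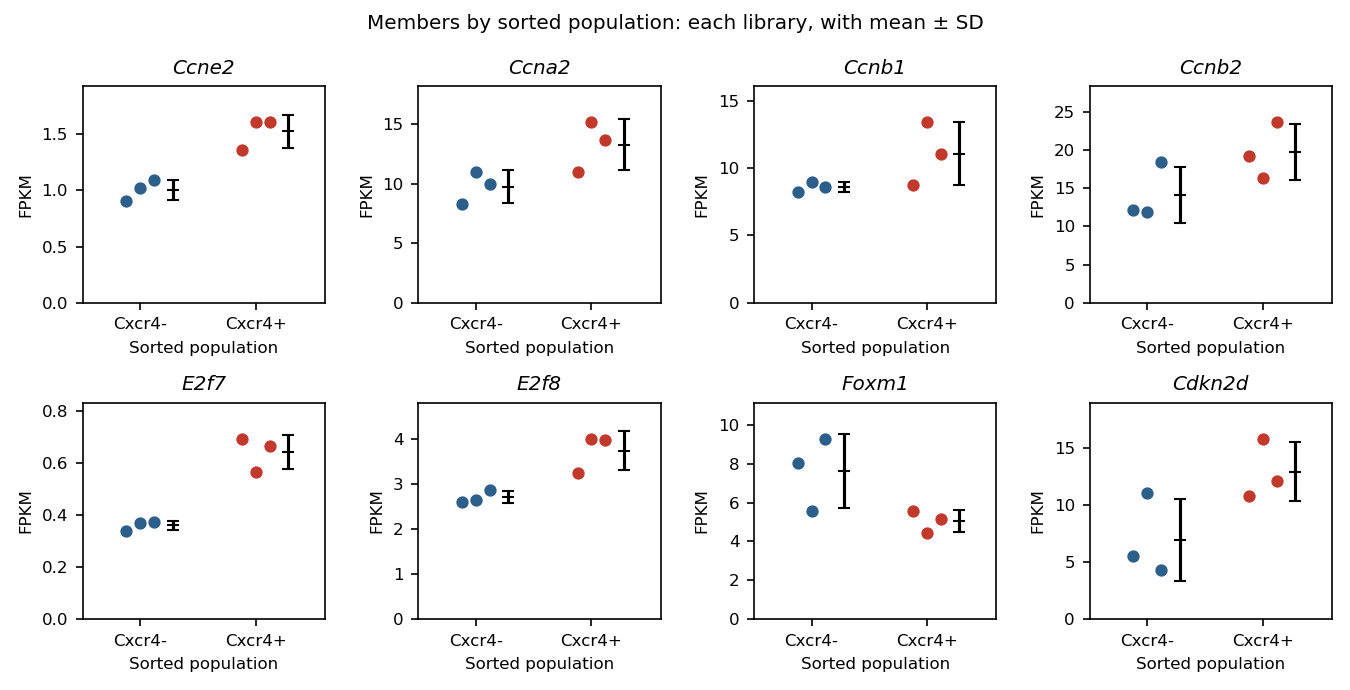
FPKM of 8 members by sorted population (vertical axis from 0; points, 3 libraries each; black marks, mean ± SD). Ccne2, Ccna2, E2f7 and E2f8 do not overlap between populations, Foxm1 is the only one of the 8 with the lower mean in Cxcr4+ libraries, 5.07 against 7.63 FPKM, and Cdkn2d overlaps through Cxcr4- library 2.

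Foxm1, the forkhead factor that switches on genes of G2 and mitosis, had the lower mean in Cxcr4+ libraries and missed the threshold. It had 5.58, 4.46 and 5.18 FPKM in Cxcr4+ and 8.02, 5.56 and 9.30 in Cxcr4- libraries. Cxcr4- library 2 lay just below the highest Cxcr4+ library, so the groups overlapped, and edgeR gave a log2 fold change of -0.60 ± 0.22 (SE; 95% interval -1.11 to -0.09, adjusted p = 0.998). Leaving out any 1 library kept it between -0.81 and -0.43. Foxm1 (chromosome 6, 128339930 to 128353109, forward strand, GRCm39) overlaps Tex52 on the same strand, which had at most 0.156 FPKM. Mybl2, which acts with Foxm1 on mitotic promoters, had 15.2, 19.0 and 15.6 FPKM in Cxcr4+ and 14.2, 16.6 and 14.3 in Cxcr4- libraries, with the number 2 library highest in both (log2 fold change 0.14, 0.07 without Cxcr4+ library 2).

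None of the regulators of Cdk phosphorylation passed the threshold. Cdc25b, which removes inhibitory phosphates from Cdk1, was the most abundant of the Cdc25 phosphatases, with 23.8, 25.6 and 24.6 FPKM in Cxcr4+ and 18.8, 24 and 22.9 in Cxcr4- libraries (log2 fold change 0.17, 0.10 without Cxcr4- library 1). Only Cxcr4- library 2 reached the Cxcr4+ range. Cdc25c, with the same role at mitotic entry, had 1.85, 1.76 and 2.31 FPKM in Cxcr4+ and 1.10, 1.59 and 1.66 in Cxcr4- libraries, which did not overlap (log2 fold change 0.44 ± 0.20 SE, with an edgeR adjusted p of 0.999, and 0.28 with limma on log2(FPKM + 1)). Wee1, the kinase that places those phosphates, had 2.90, 3.73 and 2.74 FPKM in Cxcr4+ and 2.20, 3.51 and 3.11 in Cxcr4- libraries (log2 fold change 0.08) and was highest in the number 2 library of each population. The sign for Wee1 turned without Cxcr4+ library 2 (-0.02) or Cxcr4- library 1 (-0.07). Cdkn3, a phosphatase that acts on the activating phosphate of Cdks, had 1.65, 1.02 and 1.55 FPKM in Cxcr4+ and 1.06, 0.880 and 1.19 in Cxcr4- libraries (log2 fold change 0.42, SE 0.28, and 0.23 with limma on log2(FPKM + 1)). Chek1, the checkpoint kinase that restrains Cdc25 when replication stalls, had 4.24 ± 0.750 FPKM in Cxcr4+ and 3.66 ± 0.473 in Cxcr4- libraries.

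Promoters of 6 members are shown for the sequence elements known to time transcription in the cell cycle. Of the 43 members, 32 had an entry in the RefSeq promoter table (build GRCm38.p6), from which the 250 bases before the start site were taken. In these, 3 motifs were searched on both strands: the E2F motif, as TTTCCCGC, TTTCGCGC, TTTGCCGC or TTTGGCGC, the cell cycle homology region (CHR), as TTTGAA, and the CCAAT box, as CCAAT. CHR letters were present in 5 of 10 S/G2/M promoters, 2 of 9 G1 promoters and 2 of 13 others, and in 18.3% of the windows of all 27025 genes in the table. E2F letters were present in 2, 3 and 3 of the same promoters, and in 2.16% of all. CCAAT letters were present in 8, 5 and 6, and in 37.5% of all. A gene with more than 1 listed start was counted when any of its windows held the motif.

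The coordinates of these windows are in GRCm38.p6, while gene positions given here are in GRCm39, the build of the deposited table. The sequences run 5′ to 3′ on the strand of the gene and end at the base before the start site, and capitals mark every match of the 3 motifs on either strand, which do not overlap each other here. E2f7 and E2f8 are shown because they had the smallest p-values of the members, Ccnb1 and Ccnb2 as mitotic cyclins, Cdk1 as their kinase, with close means in the populations, and Cdkn2d as the inhibitor with the largest difference.
E2f7: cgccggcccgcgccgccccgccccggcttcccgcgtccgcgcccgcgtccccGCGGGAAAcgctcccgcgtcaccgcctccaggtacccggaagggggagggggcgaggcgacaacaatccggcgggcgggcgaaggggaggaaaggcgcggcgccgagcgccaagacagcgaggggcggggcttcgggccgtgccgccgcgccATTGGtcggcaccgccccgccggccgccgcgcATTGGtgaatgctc
E2f8: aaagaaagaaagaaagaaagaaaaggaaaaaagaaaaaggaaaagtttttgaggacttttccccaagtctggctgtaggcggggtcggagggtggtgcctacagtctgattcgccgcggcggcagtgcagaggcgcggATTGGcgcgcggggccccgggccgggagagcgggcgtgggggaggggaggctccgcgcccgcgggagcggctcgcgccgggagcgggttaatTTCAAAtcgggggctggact
Ccnb1: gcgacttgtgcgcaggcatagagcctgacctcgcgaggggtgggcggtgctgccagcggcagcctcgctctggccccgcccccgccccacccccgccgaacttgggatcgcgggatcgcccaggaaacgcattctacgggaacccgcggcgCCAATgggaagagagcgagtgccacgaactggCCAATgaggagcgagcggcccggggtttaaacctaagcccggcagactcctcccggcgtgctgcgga
Ccnb2: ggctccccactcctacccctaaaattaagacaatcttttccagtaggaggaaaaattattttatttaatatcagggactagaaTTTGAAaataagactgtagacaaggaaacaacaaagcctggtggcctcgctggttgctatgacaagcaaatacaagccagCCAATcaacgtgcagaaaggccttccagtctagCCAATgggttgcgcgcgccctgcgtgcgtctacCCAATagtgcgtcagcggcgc
Cdk1: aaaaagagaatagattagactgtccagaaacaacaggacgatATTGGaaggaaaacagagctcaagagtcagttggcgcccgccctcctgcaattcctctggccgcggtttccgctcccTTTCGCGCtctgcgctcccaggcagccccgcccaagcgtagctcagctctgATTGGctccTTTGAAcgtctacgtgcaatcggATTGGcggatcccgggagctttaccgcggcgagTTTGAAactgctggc
Cdkn2d: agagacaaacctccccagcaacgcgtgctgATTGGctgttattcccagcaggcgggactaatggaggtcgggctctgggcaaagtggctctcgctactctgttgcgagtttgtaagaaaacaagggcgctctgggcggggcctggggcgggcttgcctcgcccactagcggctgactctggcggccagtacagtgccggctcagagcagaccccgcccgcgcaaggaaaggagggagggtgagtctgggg

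The window of E2f7 lies at chr10:110745189-110745438 on the forward strand and holds 1 E2F, 0 CHR and 2 CCAAT matches. The window of E2f8 lies at chr7:48881597-48881846 on the reverse strand and holds 0 E2F, 1 CHR and 1 CCAAT matches. The window of Ccnb1 lies at chr13:100786487-100786736 on the reverse strand and holds 0 E2F, 0 CHR and 2 CCAAT matches. The window of Ccnb2 lies at chr9:70421555-70421804 on the reverse strand and holds 0 E2F, 1 CHR and 3 CCAAT matches. The window of Cdk1 lies at chr10:69352913-69353162 on the reverse strand and holds 1 E2F, 2 CHR and 3 CCAAT matches. The window of Cdkn2d lies at chr9:21291210-21291459 on the reverse strand and holds 0 E2F, 0 CHR and 1 CCAAT matches. The E2F, CHR and CCAAT letters were all present in the Cdk1 window. A match is a stretch of letters and not a measured binding site, and binding was not measured here. Other forms of the 3 motifs were not searched, so 0 matches does not mean that an element is absent.

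The inhibitors were led by Cdkn1a, the p53 target p21, which had the highest level of all 43 members. Its values were 178, 123 and 181 FPKM in Cxcr4+ and 169, 135 and 178 in Cxcr4- libraries. The number 2 library was lowest in each population, the groups overlapped fully, and the log2 fold change was -0.0009 (95% interval -0.48 to 0.48), with a sign that depends on the scaling: it was 0.0005 with the size factors of DESeq2 in edgeR and 0.0002 with library totals alone. Cdkn1a shares 1046 bases with 1700023B13Rik on the opposite strand, which had 3.54 to 11.9 FPKM. Cdkn1b, p27, had 8.67, 6.47 and 9.25 FPKM in Cxcr4+ and 8.93, 6.87 and 9.94 in Cxcr4- libraries, again lowest in those numbered 2. Cdkn1c, p57, had 0 counts in all 6 libraries. A count of 0 allows up to 3 fragments, or 12 counts, in a library, since many low counts come in multiples of 4. Cdkn1a made up 95.1% ± 0.224 (SD, n = 6) of the summed FPKM of the Cip/Kip inhibitors.

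Cdkn2d, p19 of the INK4 family (chromosome 9, 21199706 to 21202604, reverse strand, GRCm39), had the largest fitted difference of the tested members. It had 10.8, 15.8 and 12.1 FPKM in Cxcr4+ and 5.49, 11.0 and 4.27 in Cxcr4- libraries. Cxcr4- library 2 reached the Cxcr4+ range while Cxcr4- libraries 1 and 3 lay well below it, and edgeR gave a log2 fold change of 0.90 ± 0.32 (SE; unadjusted p = 0.0229, adjusted p = 0.998). The value ran from 0.66 to 1.35 when 1 library was left out. No other gene of the table overlaps Cdkn2d. Cdkn2c, p18, had 3.87 ± 0.290 FPKM in Cxcr4+ and 3.52 ± 0.118 in Cxcr4- libraries, with a 95% interval of the log2 fold change of -0.18 to 0.43. Cdkn2a, whose gene encodes both an INK4 protein and Arf, had 35, 0 and 4 counts in Cxcr4+ libraries 1 to 3 and 0 in each Cxcr4- library. Cdkn2b, p15, had 30, 0 and 0 counts in the Cxcr4+ and 4, 4 and 0 in the Cxcr4- libraries. Only Cxcr4+ library 1 exceeded the floor of 12 counts for either gene. It also had the highest summed level of the fibroblast list, 16.1 FPKM, though Dcn, Fap and Lum were not highest there. Whether fibroblasts had a part in these counts was not tested.

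Pocket proteins, which hold E2F factors in check, and the repressive E2f4 were close between the populations. Rb1, the retinoblastoma protein, had 6.42, 6.34 and 6.64 FPKM in Cxcr4+ and 5.82, 6.49 and 6.01 in Cxcr4- libraries (log2 fold change 0.08, 95% interval -0.13 to 0.29, and 0.04 without Cxcr4+ library 3). Rbl1, p107, had 4.48 ± 0.655 FPKM in Cxcr4+ and 3.97 ± 0.664 in Cxcr4- libraries, and Rbl2, p130, had 3.59 ± 0.0644 and 3.66 ± 0.399. E2f4, which represses with p130 in resting cells, was the most abundant E2F factor, with 25.6, 30.2 and 26.8 FPKM in Cxcr4+ and 26.7, 31.1 and 24.3 in Cxcr4- libraries and 52.9% ± 3.29 (SD, n = 6) of the summed FPKM of the 6 E2F members. Its log2 fold change was 0.01 (95% interval -0.22 to 0.23), -0.03 without Cxcr4+ library 2 and -0.06 without Cxcr4- library 3.

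Members of the p53 pathway were abundant and did not separate the populations. Trp53, the p53 tumour suppressor, had 32.4 ± 0.715 FPKM in Cxcr4+ and 31.8 ± 2.31 in Cxcr4- libraries (95% interval of the log2 fold change -0.17 to 0.21). Mdm2, the ubiquitin ligase that degrades p53 and is also its target, had 127, 79.4 and 129 FPKM in Cxcr4+ and 128, 76.3 and 125 in Cxcr4- libraries. Both number 2 libraries were low and the other 4 high, and the log2 fold change was 0.02 (95% interval -0.64 to 0.68), with a negative sign without Cxcr4+ library 1 (-0.09), Cxcr4+ library 3 (-0.11) or Cxcr4- library 2 (-0.21). Ccng1, cyclin G1, another p53 target, had 53.1, 50.2 and 54.5 FPKM in Cxcr4+ and 45.0, 47.5 and 53.7 in Cxcr4- libraries (log2 fold change 0.11, and from 0.05 without Cxcr4- library 2 to 0.19 without Cxcr4- library 3). Its number 2 library was the lowest in the Cxcr4+ but not in the Cxcr4- population. Ccng2, linked to cell cycle arrest, had 5.19 ± 0.723 FPKM in Cxcr4+ and 4.82 ± 0.793 in Cxcr4- libraries. Chek2, the checkpoint kinase that acts on p53 after strand breaks, had 4.62, 5.78 and 5.79 FPKM in Cxcr4+ and 3.95, 5.39 and 4.95 in Cxcr4- libraries (log2 fold change 0.18, 0.10 without Cxcr4+ library 3 and 0.09 without Cxcr4- library 1). Myc, the growth factor-induced transcription factor, was low, with 1.14, 0.269 and 1.05 FPKM in Cxcr4+ and 0.651, 0.356 and 0.592 in Cxcr4- libraries. Its number 2 libraries were lowest in both populations, at 43 and 55 counts, and the log2 fold change of 0.61 had an SE of 0.56. Without Cxcr4+ library 1 it was 0.29, without Cxcr4+ library 3 it was 0.38, without Cxcr4- library 2 it was 0.36, and without Cxcr4+ library 2 it was 1.04.

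The number 2 libraries stood apart for members as for other genes. Both number 2 libraries lay above the other 4 for 9 of the 40 tested members, a smaller share than the 26.2% of all tested genes (Ccnd1, Ccnd2, Ccne1, Cdk1, Mybl2, Wee1, Chek1, Rbl1 and E2f4) and below them for 8, a larger share than the 9.74% of all tested genes (Ccnd3, Cdk6, Cdkn3, Cdkn1a, Cdkn1b, Ccng2, Mdm2 and Myc). Without these libraries, in numbers 1 and 3 alone, the S/G2/M median log2 fold change was 0.22 and the G1 median 0.03, against 0.28 and 0.07 in all 6. The S/G2/M median was 0.28 without Cxcr4+ library 1. Of the 14 S/G2/M regulators, 13 were positive in the fit to all 6 libraries and 11 to 13 when any 1 was left out.

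**Figure D5:**
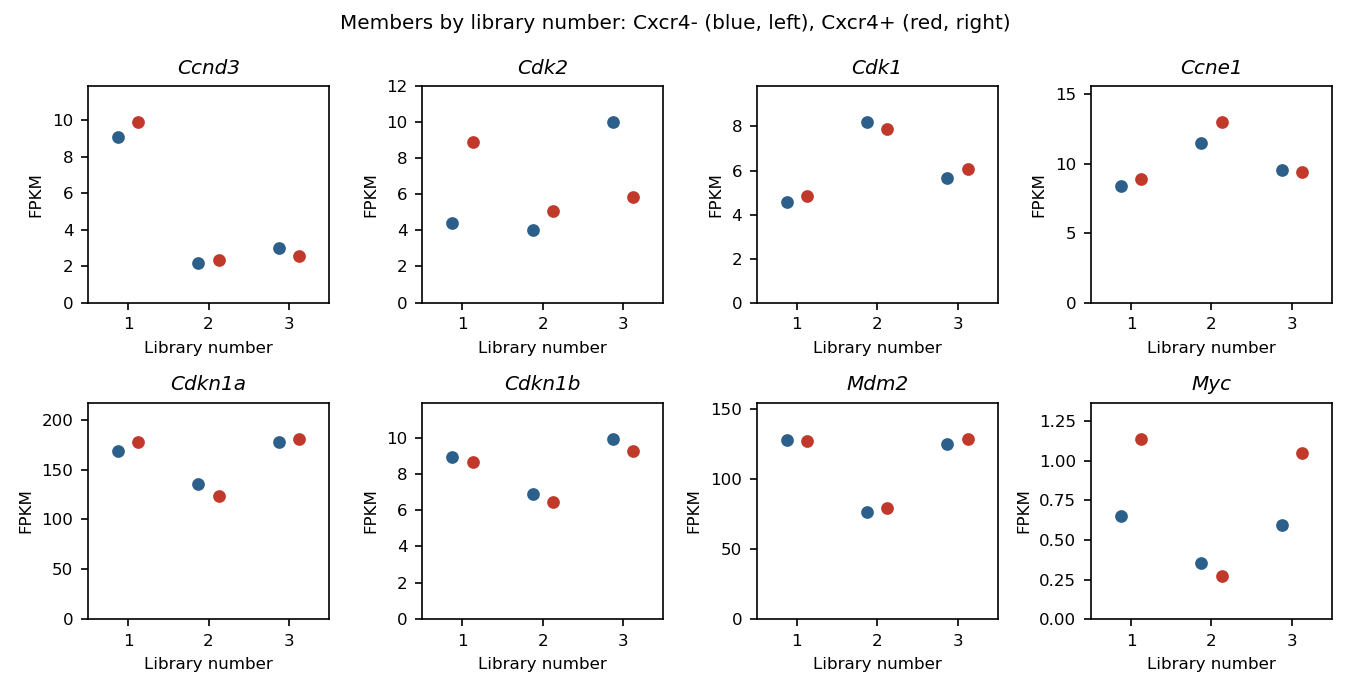
FPKM of 8 members by library number (horizontal axis; blue, Cxcr4- library; red, Cxcr4+ library; vertical axis from 0). Ccnd3 is high in both number 1 libraries, at 9.89 and 9.06 FPKM, Cdkn1a, Cdkn1b, Mdm2 and Myc are lowest in those numbered 2, Cdk1 and Ccne1 are highest there, and the high Cdk2 values follow neither number nor population.

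Partners of these regulators had a median close to that of the G1 class. Of 36 further genes of the pathway, 35 matched the table and 33 were tested. In edgeR 0 passed the threshold in either direction. Of the 33, 24 were positive, against 50.1% of all tested genes, and the median log2 fold change was 0.06. At an unadjusted p under 0.05 in edgeR, against 2.66% and 2.18% of all tested genes, 0 partners were lower and 2 were higher. These were Lin52, a subunit of the MuvB complex that binds CHR elements, at 2.84, 3.19 and 3.67 FPKM in Cxcr4+ and 2.22, 2.52 and 2.49 in Cxcr4- libraries (log2 fold change 0.42), and Bub1, a kinase of the spindle checkpoint, at 15.5, 15.9 and 17.3 and 13.3, 11.4 and 14.4 (0.31). Neither overlapped between the populations. That held, with Cxcr4+ the higher, for 3 of the 33 partners and 5.5% of all tested genes. Next by p came Aurkb (0.32), Fbxo5 (0.42), Plk1 (0.23) and Cdc20 (0.32). Of other partners with a role in mitosis or at its entry, Aurka had 0.06, Pkmyt1 0.10, Cks2 0.16 and Fzr1 -0.07. The dimerisation partner Tfdp1 had 29.3 ± 3.34 FPKM in Cxcr4+ and 27.8 ± 2.02 in Cxcr4- libraries, and Ccna1 and Ccnb3, cyclins of germ cells, had 0 counts in all 6 libraries.

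Markers of cycling cells all leaned the same way. Of 10 markers, 10 lay above 0 on the log2 scale (median 0.33), against 50.1% of all tested genes, and 0 passed the threshold in edgeR. At an unadjusted p under 0.05 in edgeR, 6 were higher and 0 lower, against 2.66% and 2.18% of all tested genes. Ube2c, which ubiquitinates cyclins at mitotic exit, had 18.1, 18.8 and 18.8 FPKM in Cxcr4+ and 12.1, 14.0 and 12.2 in Cxcr4- libraries (log2 fold change 0.54 ± 0.09 SE, with an edgeR adjusted p of 0.350). Mki67, the proliferation antigen Ki-67, had 20.8, 16.8 and 19.3 FPKM in Cxcr4+ and 15.1, 12.1 and 14.9 in Cxcr4- libraries (log2 fold change 0.43). The groups did not overlap for either gene. That held, with Cxcr4+ the higher, for 4 of the 10 markers and 5.5% of all tested genes. Birc5, Kif11 and Tpx2, which act on the mitotic spindle, had log2 fold changes of 0.37, 0.39 and 0.23, and Pcna, the replication clamp, one of 0.30. The proliferation genes had been examined in these libraries before, so they are not independent support for the members' pattern.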

How the data were processed

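RNA-seq values of 6 libraries, 3 of Cxcr4+ and 3 of Cxcr4- macrophages, were used. Per the submitters' processing notes, the authors used cutadapt, HISAT2 and StringTie with GRCm39. Tool versions, annotation release and strand setting were not given in these sources. Per the file headers, the authors deposited each gene's estimated count, already a whole number, and its FPKM in every library. Of the counts from 1 to 20, 43.2% were multiples of 4, where an even spread would give 25%. On the assumption of 4 counts per fragment, the floor for a count of 0 was set at 12 counts, or 3 fragments, per library. That floor covers counting error only. The deposited FPKM hold a constant minimum where the count is 0, which was read as 0.

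The quasi-likelihood fit of edgeR 4.0.16 (R 4.3.3, legacy mode) had group as its sole term. Normalization was by TMM, and filterByExpr, at a minimum of 10 counts per library and 15 in total, kept 16031 of 53647 genes, and the procedure was tested on simulated data. The SE is the log2 fold change over the square root of F, and 95% intervals use the t quantile at the total degrees of freedom of the fit. Alternatives were DESeq2 1.42.0, limma 3.58.1 on log2(FPKM + 1) and log2(FPKM + 0.1), other scalings and filters, counts divided by 4, blocks and left-out libraries. Figures used matplotlib 3.10.9.

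The members, their classes and the other lists were chosen with earlier results of these data known. Values in every library are given for members whose groups did not overlap or whose unadjusted p was under 0.05, for the most abundant member of each role and for D-type cyclins. From the partner and cycling marker lists, up to 6 genes each of smallest p are named; Cdkn1b by library, Top2a, Tfdp1, Aurka, Pkmyt1, Cks2, Fzr1 and the partners at 0 counts were added after their values were seen. The counts of positive members and of all genes called under each alternative were added after seeing the data.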

Additional observations from a re-analysis of the deposited data

How the results depend on the processing

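Under 17 alternatives to the main fit, 0 members were called in either direction. The number of all genes called was 5 in the main fit, 53 with DESeq2, 2 with limma on log2(FPKM + 1), 0 with the replicate number as a block, and 1 to 9 with 1 library left out. The replicate block left the S/G2/M and G1 medians at 0.27 and 0.07. Members at an unadjusted p under 0.05 in edgeR were 11 with it and 10 with the number 2 libraries as a block, against 7 without. The share of all tested genes at that p under either block is not given here. Whether the rise is particular to the members therefore cannot be told. Deviations from the group means correlated at 0.038, 0.141 and 0.045 between same-numbered libraries 1, 2 and 3, of which only the number 2 pair passed 0.1, the highest of all 9 pairs, while Cxcr4+ library 1 correlated best with Cxcr4- library 3 (0.052). The labels do not say what a number stands for, so the block was kept as an alternative. The S/G2/M median of 0.28 was 0.20 with limma on log2(FPKM + 1), whose pseudocount shrinks low genes, 0.42 without Wee1, Chek1 and Cdc25b, and 0.21 to 0.32 with 1 library left out. The G1 median ran from 0.02 to 0.09 with 1 library left out and was 0.09 without the E2F factors and Cdc25a. Positive G1 regulators numbered 6 to 10 of 12 and S/G2/M regulators 11 to 13 of 14 with 1 library left out.

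The sign turned in at least 1 alternative for 17 of the 40 tested members, 16 of them with 1 library left out and 5 under another setting. The 5 were Ccnd3, Cdkn1a, Cdc25a, E2f2 and Ccnf. Cdc25a (-0.0004) turned under 6 settings, DESeq2 among them, and E2f2 and Ccnf with libraries 1 and 3 alone. A reversed sign was found for Ccnd3 with limma on log2(FPKM + 0.1) (-0.0033) and with the replicate block (-0.01), and for Cdkn1a with DESeq2 (0.0054), its size factors in edgeR (0.0005), library totals (0.0002) and libraries 1 and 3 alone (0.0466). With 1 library left out the log2 fold change ran from -0.0342 to 0.0037 for Ccnd2, -1.01 to 0.96 for Ccnd3, -0.0617 to 0.17 for Ccne1, -0.13 to 0.24 for Cdk1, -0.20 to 0.66 for Cdk2, -0.14 to 0.19 for Cdkn1a, -0.0636 to 0.0669 for E2f4, -0.21 to 0.24 for Mdm2 and -0.0653 to 0.19 for Wee1. The other 7 members whose sign turned with a left-out library were Cdk6, Cdc25a, E2f2, Cdkn1b, Rbl2, Ccng2 and Trp53, with values over all alternatives between -0.25 and 0.22. The cause was not tested. A left-out library leaves 2 in its group, and libraries 1 and 3 alone leave 2 in each. Cdkn1c, Cdkn2a and Cdkn2b did not pass the filter on counts and were left untested.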
